A study of Mus musculus with 52 samples.

Results

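Fibroblast-rich tumours are the 15 libraries with the highest, and fibroblast-poor tumours the 15 with the lowest, level of 3 fibroblast genes among 52 libraries of 4T1 tumours. The libraries were selected on the measured RNA: the score of a library was the mean log2(TPM + 1) of Dcn, Lum and Pdgfra, where TPM is a transcript abundance scaled for gene length and depth. Within each of 6 groups of mice the highest and the lowest libraries were taken, 1 in 3 of the group each and rounded down, so that both classes hold the same number from each group, and 22 libraries fell in neither. Dcn and Lum encode the collagen-binding proteoglycans decorin and lumican, and Pdgfra encodes a receptor for platelet-derived growth factor. These 3 genes made the classes, so their levels are given as a description and support nothing.

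RNA was sequenced from tumours that grew after 100000 cells of 4T1, an established mouse mammary carcinoma line, were injected into a mammary fat pad of Balb/C mice. The hosts were young (8 to 10 weeks) or aged (over 12 months), and each was given isotype antibody, anti-PD-L1 or anti-CTLA4, as 200 µg doses on days 7, 10 and 13. The latter 2 are checkpoint antibodies, directed against proteins that restrain T cells. Among young hosts there were 7 tumours under isotype, 10 under anti-PD-L1 and 12 under anti-CTLA4, which gave 2, 3 and 4 tumours to each class. Among aged hosts there were 7, 8 and 8 in the same order, which gave 2 each. All tumours came from the same line and strain, and the labels name no animal, so the p-values below measure the spread between these libraries. Whole tumours were sequenced, and fewer cells of a type cannot be told apart from less RNA of its genes per cell.

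Fibroblasts of a carcinoma lay down the collagens and proteoglycans of the stroma, release growth factors and chemokines, and remodel the matrix with proteases. They are often described as adventitial or progenitor-like cells marked by Pi16 and Cd34, inflammatory cells that make cytokines and complement, and contractile cells marked by Acta2. In the mammary fat pad they lie among vessels, nerves and adipocytes, so a tumour rich in host stroma can carry RNA of each of these.

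The score ran from 4.31 to 6.6 (median 5.78) in the rich class, from 2.40 to 4.77 (median 3.95) in the poor class and from 3.35 to 5.59 in the 22 other libraries. Median TPM in the rich and poor class was 190 and 43.8 for Dcn, 52.1 and 15.2 for Lum, and 14.6 and 6.22 for Pdgfra. The classes are relative to the group: the rich young isotype tumours scored 4.31 and 4.67, below a poor aged anti-PD-L1 tumour at 4.77. Mean scores over all tumours of a group were 3.73 for young isotype, 4.81 for young anti-PD-L1, 4.70 for young anti-CTLA4, 4.78 for aged isotype, 5.10 for aged anti-PD-L1 and 5.34 for aged anti-CTLA4. At the edges, the last poor and the next library differed by 0.02 in aged anti-PD-L1, 0.03 in aged isotype, 0.12 in young anti-PD-L1, 0.33 in young isotype, 0.44 in young anti-CTLA4 and 0.51 in aged anti-CTLA4. The lowest rich library stood above the next by 0.11 (young isotype), 0.12 (aged anti-PD-L1), 0.17 (young anti-CTLA4), 0.23 (aged isotype), 0.42 (aged anti-CTLA4) and 0.74 (young anti-PD-L1). Where these gaps are small, the class of a library turns on a small difference of 3 genes.

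**Figure D1:**
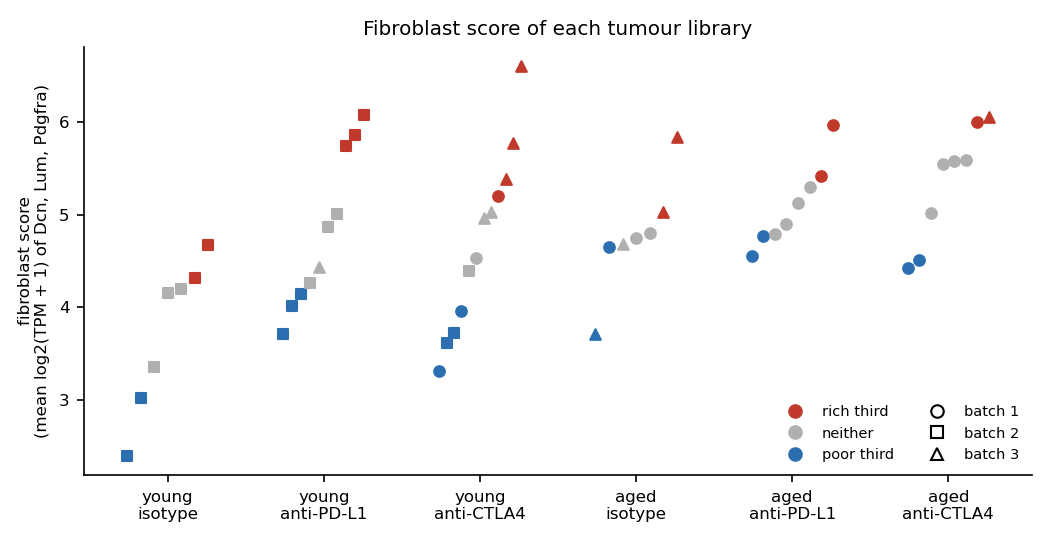
Fibroblast score (mean log2(TPM + 1) of Dcn, Lum and Pdgfra) of each of 52 tumour libraries by group, with colour for the class and symbol for the sequencing batch. Rich libraries reach from 4.31 to 6.6 and poor libraries from 2.40 to 4.77, and the young isotype group lies lowest.

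Several properties of the libraries differed between the classes. The rich class held 4, 5 and 6 libraries of sequencing batches 1, 2 and 3, and the poor class 7, 7 and 1. Total counts had a median of 24300000 in the rich class and 15900000 in the poor class. TMM factors, which rescale a library for its composition, were 0.935 to 1.23 in rich and 0.645 to 1.05 in poor libraries, and the 10 most counted genes took 5.56 to 8.63% and 6.65 to 11.2% of the counts. CPM denotes counts scaled to library size. The length trend, how far log2 CPM in a library departs from the average per doubling of effective gene length, was 0.14 ± 0.16 (mean ± SD, n = 15) in rich and -0.182 ± 0.214 (n = 15) in poor libraries. All rich libraries lay above all poor ones in 5 of 6 groups, the exception being aged anti-PD-L1, and an exact two-sided permutation test within groups gave p = 4.41e-06 over 1814400 arrangements. Within batch 2, the young isotype and young anti-PD-L1 libraries gave 0.143 ± 0.211 and -0.253 ± 0.222 (n = 5 each; exact permutation p = 0.0167, the smallest that 120 arrangements can give). Longer genes therefore had more counts, relative to shorter genes, in rich than in poor libraries. Of the poor libraries 3 had a TMM factor under 0.8, namely aged isotype replicate 3, young anti-CTLA4 replicate 8 and young isotype replicate 6. The part of these properties in the results below was not tested, and values with the length trend as a further term are given beside each gene group.

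**Figure D2:**
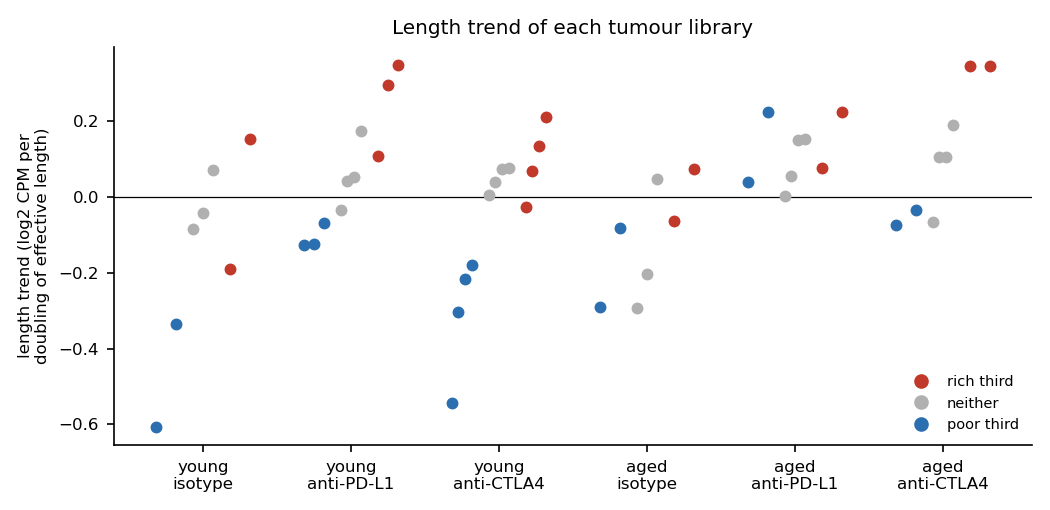
Length trend (change of log2 CPM per doubling of effective gene length) of each library by group, with poor, other and rich libraries side by side in each group. Rich libraries span -0.19 to 0.348 and poor libraries -0.607 to 0.224, and the classes overlap within aged anti-PD-L1 alone.

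The comparison of the classes, with terms for group and sequencing batch, called 3620 genes higher (19.1% of 18958 tested) and 3914 lower (20.6%) in rich tumours at an edgeR adjusted p under 0.05. Because the libraries were sorted on genes of the same measurement, these p-values describe what varies together with the 3 genes, and the shares are the background against which every count below stands. The calls followed gene length. In the quintile of genes with the shortest effective length 2.26% were higher and 55.9% lower (median log2 fold change -0.57), and in the longest quintile 48.6% were higher and 2.32% lower (median 0.43). With the length trend as a term 108 genes were higher (0.57%) and 30 lower (0.158%), and the medians of the quintiles lay between -0.11 and -0.03. Of these, 98 higher and 17 lower genes were also called the same way without the term. Score and length trend had a Pearson r of 0.88 within the 30 libraries, so the fit with the term separates class from length trend poorly. A call lost with the term does not tell which of them a gene follows. Within batch 2 alone 5624 genes were called, and within batches 1 and 3 alone none (edgeR, 4209 and 2870 genes at an unadjusted p under 0.05), where batch 3 held 6 rich libraries and 1 poor library. Without the 3 poor libraries of low TMM factor 5182 genes were called. The list medians given below kept their sign without these 3, with the exception of the macrophage list (-0.02 with and 0.06 without them), and the largest change was 0.36, for B cell markers.

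**Figure D3:**
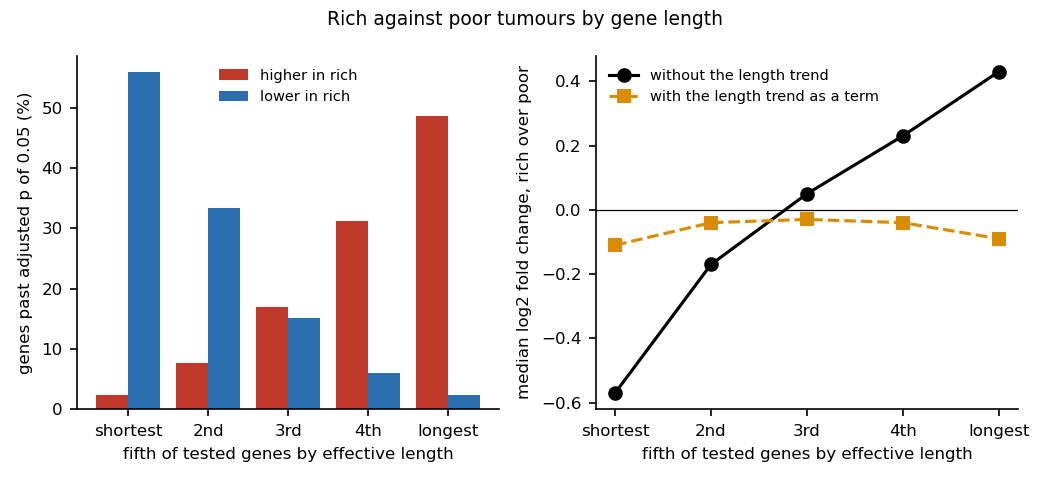
Left, percentage of genes called higher or lower in rich tumours (edgeR adjusted p under 0.05) in each quintile of tested genes by effective length. Right, the median log2 fold change of each quintile without and with the length trend as a term: without it the medians climb from -0.57 to 0.43, and with it they lie between -0.11 and -0.03.

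The 22 libraries of neither class were not used in the comparison, but they were scored on the same genes, Dcn, Lum and Pdgfra. There the slope of a gene on the score (log2 change per unit of score) was called positive for 330 of 18654 genes (1.77%) and negative for 986 (5.29%). Of 18283 genes tested in both sets, 1213 were called in both, all with the same sign, which is 92.2% of the calls in the 22 and 16.3% of those in the classes. Altogether 6778 of the 7444 genes called between the classes had the same sign in the 22. The share with the same sign over all 18283 genes is not given, so this count has no background beside it. The score came from the same RNA measurement as the genes tested, so the shared signs describe what varies together with the score. They are not independent support. Score and length trend had a Pearson r of 0.81 over all 52 libraries, and no slope with the length trend as a term is given. The part of the length trend in the shared signs was not tested. These slopes depend on single tumours: without young isotype replicate 2 no gene passed (edgeR, 3647 at an unadjusted p under 0.05), and without young anti-CTLA4 replicate 4 the number was 811. Leaving out aged anti-CTLA4 replicate 7 gave 870 and young isotype replicate 4 gave 873.

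The higher genes of smallest p were Gsn, Pltp and Ccdc80. Gsn, which encodes the actin-severing protein gelsolin, ran from 253 to 595 CPM (median 424) in rich and from 160 to 342 CPM (median 240) in poor tumours, and 13 of 15 rich libraries lay above the highest poor one. Its log2 fold change was 0.91 ± 0.10 (SE), edgeR adjusted p = 1.58e-05. Pltp, the phospholipid transfer protein of lipoproteins (chr2:164839518-164857711, GRCm38), ran from 45.2 to 268 CPM (median 126) in rich and from 23.3 to 136 CPM (median 39.6) in poor tumours. Every rich library exceeded the poor libraries of its own group in all 6 groups, although the classes overlapped across groups, and the log2 fold change was 1.37 ± 0.15, edgeR adjusted p = 1.58e-05. Ccdc80, a matrix-bound protein, ran from 40.7 to 85.4 CPM (median 60.4) against 20.6 to 41.0 CPM (median 30.8), so that 14 rich libraries stood above all poor ones (1.14 ± 0.13, edgeR adjusted p = 1.58e-05). With the length trend as a term the log2 fold changes were 0.70 for Gsn (edgeR adjusted p = 0.0216), 1.58 for Pltp (0.00633) and 0.94 for Ccdc80 (0.0216). In the 22 other libraries the slopes were 1.05 ± 0.22 for Gsn (edgeR adjusted p = 0.00856), 1.10 ± 0.27 for Pltp (0.0192) and 0.55 ± 0.16 for Ccdc80 (0.0517).

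The other 12 leading higher genes were Adgrg1, Plpp3, Plvap, C1ra, Htra3, Tie1, Fbln5, Aoc3, Cyp1b1, Tek, Pros1 and Papss2, with log2 fold changes from 0.88 (Pros1) to 1.89 (Cyp1b1). Tek and Tie1 are receptors of the angiopoietin system of endothelium, Plvap forms the diaphragms of fenestrated vessels and Fbln5 is an elastic fibre protein. Pros1 encodes protein S, an anticoagulant that also binds receptors on phagocytes, and was at 54.5 ± 13.2 CPM (SD, n = 15) in rich and 29.0 ± 5.58 CPM (n = 15) in poor tumours. Its slope in the 22 was 0.79 ± 0.15 (edgeR adjusted p = 0.00607).

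Altogether 21 genes were called the same way between the classes, with the length trend as a term, and in the 22 libraries. This set was formed after the values were seen. Of the 21, 14 were higher: Gsn, Pltp, Adgrg1, Tek, Pros1, Glul, Pi16, Sod3, Aqp1, Cd163, Tmem8, Gas6, Lrg1 and Fcgrt. Glul encodes glutamine synthetase, Sod3 the extracellular superoxide dismutase, Aqp1 a water channel of vessels, and Gas6 a ligand of the TAM receptors related to protein S. The 7 lower genes were Dynlt1c, Ube2b, Lsm1, Polb, Sike1, Tia1 and 5031425E22Rik. Lsm1 acts in mRNA decay, Polb is the DNA polymerase of base excision repair and Ube2b is a ubiquitin-conjugating enzyme.

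Most markers of fibroblasts outside the rule were higher in the tumours called rich. Of 18 tested, 13 were higher and 1 lower, with a median log2 fold change of 0.81 beside 0.04 over all genes. The summed level of the list was not higher, with medians of 5810 CPM in rich and 6010 CPM in poor tumours. The matrix protein Fbln1 was at 20.8 ± 10.6 CPM in rich and 7.48 ± 1.98 CPM in poor tumours (n = 15 each), a log2 fold change of 1.53 ± 0.23 (edgeR adjusted p = 6.06e-05). Pdgfrb, the receptor that fibroblasts share with pericytes, was at 33.1 ± 12.8 and 13.7 ± 6.59 CPM (1.31 ± 0.22, edgeR adjusted p = 0.000106). Clec3b (1.64), Cygb (1.17), Dpep1 (1.05) and Col14a1 (0.98) were also higher. Fap, fibroblast activation protein, was at 11.2 ± 3.81 and 8.26 ± 2.76 CPM and did not pass (0.38 ± 0.19, edgeR adjusted p = 0.113), nor did Twist1 (-0.03), Pdpn (0.27) or the widely expressed Vim (0.31). S100a4, which carcinoma and myeloid cells also express, was lower (-0.91). With the length trend as a term 5 of the 18 were called higher, namely Thy1, Dpt, Gsn, Clec3b and Cygb, none lower, and the median was 0.55. In the 22 libraries 1 was called higher and 1 lower (median slope 0.53 beside 0.01 over all genes).

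Adventitial markers were higher in 6 of 10 and lower in 1 (median 0.87, or 0.79 with the length trend, where 2 passed). Pi16 (chr17:29317680-29330593, GRCm38), a marker of the fibroblasts that surround vessels, ran from 22.6 to 146 CPM (median 65.9) in rich and from 12.4 to 67.0 CPM (median 25.3) in poor tumours. Rich libraries stood above the poor ones of their group in 5 of 6 groups, and 7 stood above all poor libraries. The log2 fold change was 1.44 ± 0.19 (edgeR adjusted p = 3.67e-05), 1.34 with the length trend (edgeR adjusted p = 0.0274), and the slope in the 22 was 1.09 ± 0.30 (edgeR adjusted p = 0.0343). Col15a1, a collagen of the vascular basement membrane zone, was higher (1.33 ± 0.21, edgeR adjusted p = 7.06e-05), as were Cd55 (1.41), Sema3c (1.05), the opioid precursor Penk (1.04) and Cd34 (0.71). Anxa3 was lower (-0.48). Dpp4 (0.45), Ly6a (0.33) and Has1 (0.39) did not pass.

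Among genes of inflammatory fibroblasts 7 of 15 were higher and 2 lower (median 0.35, or 0.59 with the length trend, where 3 passed). The chemokine Cxcl12, which retains CXCR4-bearing leukocytes, ran from 25.8 to 507 CPM (median 134) in rich and from 8.51 to 211 CPM (median 27.0) in poor tumours. The classes overlapped widely across groups, yet rich exceeded poor within 5 of 6 groups, and the log2 fold change was 1.85 ± 0.34 (edgeR adjusted p = 0.000203), or 2.43 with the length trend (edgeR adjusted p = 0.0279). The slope of Cxcl12 in the 22 was 0.27 ± 0.82 (edgeR adjusted p = 0.898). The matrix protein Svep1 (1.73), the angiotensin receptor Agtr1a (1.70), the lipid phosphatase Plpp3 (1.61), the eosinophil chemokine Ccl11 (0.79), Hgf (0.66) and Il33 (0.59) were higher. The monocyte chemokines Ccl2 (-0.68) and Ccl7 (-0.87) were lower. Il6 was at 0.733 to 4.76 CPM in rich and 1.36 to 5.50 CPM in poor tumours (-0.49 ± 0.26, edgeR adjusted p = 0.144), and Lif (0.13) and Saa3 (-0.08) did not pass.

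Complement genes that stromal cells make were higher in 8 of 10 and lower in none (median 1.20, or 1.27 with the length trend, where 4 passed). C3, the central component cleaved by all complement pathways, ran from 73.8 to 1600 CPM (median 600) in rich and from 52.8 to 927 CPM (median 97.5) in poor tumours. All rich libraries exceeded the poor mean of their own group, although the ranges overlapped, with a log2 fold change of 1.83 ± 0.27 (edgeR adjusted p = 6.01e-05). C1ra and C1s1 encode the paired proteases of the C1 complex and lie next to each other on chromosome 6. C1ra was at 97.6 ± 41.1 and 43.3 ± 19.9 CPM (1.23 ± 0.15, edgeR adjusted p = 1.95e-05), and C1s1 at 85.4 ± 39.8 and 30.7 ± 23.5 CPM (1.60 ± 0.22, edgeR adjusted p = 5.34e-05). Serping1, the inhibitor of these proteases, was at 219 ± 112 and 88.8 ± 51.5 CPM (1.41 ± 0.19, edgeR adjusted p = 4.45e-05). C7 (2.62), C4b (0.77) and Cfd were also higher, while Cfb (0.20) and Masp1 (0.58) did not pass. In the 22 libraries 0 of 9 passed, with slopes of 1.42 ± 0.65 for C3 (edgeR adjusted p = 0.207), 0.98 ± 0.33 for C1ra (0.0801) and 0.41 ± 0.56 for C1s1 (0.732).

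The promoters of C3, C1ra and C1s1 are shown because these genes were called both without and with the length trend. Sequences are from RefSeq (GRCm38.p6), 250 bases before to 50 after the start of transcription, on the gene's strand. Of the genes of this list 5 had an entry, and C4b, Serping1, Cfb and Masp1 are among those named only. Capitals mark matches, on either strand and free to overlap, to TTCNNNGAA, the palindrome that STAT factors bind, and to TATAAA, the TATA box. TTCNNNGAA occurs in 8.3% and TATAAA in 13.6% of 32851 promoter entries of this length. C3 lies at chr17:57228087-57228386 on the minus strand, C1ra at chr6:124512371-124512670 on the plus strand and C1s1, the first of 2 entries, at chr6:124542310-124542609 on the minus strand.
C3: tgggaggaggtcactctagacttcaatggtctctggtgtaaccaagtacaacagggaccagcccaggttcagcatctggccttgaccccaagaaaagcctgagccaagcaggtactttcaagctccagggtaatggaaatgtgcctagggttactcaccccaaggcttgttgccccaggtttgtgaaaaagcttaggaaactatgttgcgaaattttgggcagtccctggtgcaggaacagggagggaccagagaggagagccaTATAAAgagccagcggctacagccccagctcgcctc
C1ra: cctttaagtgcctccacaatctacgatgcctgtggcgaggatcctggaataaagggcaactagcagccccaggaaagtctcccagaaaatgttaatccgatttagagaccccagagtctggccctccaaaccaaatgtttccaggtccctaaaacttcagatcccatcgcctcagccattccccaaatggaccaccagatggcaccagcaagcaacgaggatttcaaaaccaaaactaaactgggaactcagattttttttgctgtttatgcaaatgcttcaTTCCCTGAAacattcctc
C1s1: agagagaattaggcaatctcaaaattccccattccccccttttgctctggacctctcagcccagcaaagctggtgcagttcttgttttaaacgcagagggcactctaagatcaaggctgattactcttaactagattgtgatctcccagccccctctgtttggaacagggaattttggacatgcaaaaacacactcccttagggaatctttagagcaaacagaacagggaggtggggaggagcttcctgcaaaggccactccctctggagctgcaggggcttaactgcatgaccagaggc
The match in C3 is a TATAAA 14 bases after the annotated start, C1ra holds a TTCNNNGAA match 32 bases after it, and this C1s1 window holds neither. These are matches of letters, not sites known to be used.

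Fibrillar collagens were higher in 7 of 11 and lower in none, with a median of 1.22. The list consists of long genes: 9 of the 10 with a measured length are in the longest quintile, where 48.6% of all genes were called higher. With the length trend as a term the median was 0.10 and none passed. Col1a1 (chr11:94936224-94953042, GRCm38), a chain of type I collagen, ran from 328 to 2393 CPM (median 788) in rich and from 75.1 to 1169 CPM (median 247) in poor tumours. Only 3 rich libraries exceeded all poor ones, and in 1 group, aged isotype, both rich libraries lay below the poor ones. The log2 fold change of Col1a1 was 1.39 ± 0.42 (edgeR adjusted p = 0.0109), or 0.10 with the length trend (edgeR adjusted p = 0.933). Col3a1, the chain of type III collagen, was at 2082 ± 941 and 834 ± 293 CPM (1.22 ± 0.22, edgeR adjusted p = 0.00019; 0.74 with the length trend, edgeR adjusted p = 0.22). Col1a2 (1.35), Col5a2 (1.24), Col5a3 (1.21) and Col5a1 (0.95) were higher, and Col24a1 and Col27a1 (0.61 each) did not pass. In the 22 libraries none of 11 passed (median slope 0.72).

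The median log2 fold change of fibrillar collagens was 1.68 in young hosts, where 7 passed, and 0.09 in aged hosts, where none did. Over all genes 17.8% were called higher in young hosts alone and 5.64% in aged hosts alone. Basement membrane genes were called higher 12 times in young and 0 times in aged hosts, and genes of collagen folding 15 times and 1 time. No fibrillar collagen passed the test of the difference between the ages. Col1a1 was at 2.41 ± 0.41 in young hosts (edgeR adjusted p = 0.00111) and -0.01 ± 0.43 in aged hosts (edgeR adjusted p = 0.988). These 2 values come from separate fits of each age. The difference was taken from a joint fit of the 30 libraries, so it need not equal their subtraction. It was -2.15 ± 0.57 (aged minus young) with an edgeR adjusted p of 0.1, which does not pass. For Col1a2 the difference was -1.68 ± 0.43, for Col5a3 -1.88 ± 0.47 and for Col5a2 -1.29 ± 0.37 (edgeR adjusted p = 0.1, 0.1 and 0.104). The length trend was higher in all rich than in all poor libraries of the 3 young groups and of 2 aged groups, and its part in the age pattern was not tested.

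Other matrix groups were higher too. Non-fibrillar collagens passed in 10 of 18 (median 0.87, 0.64 with the length trend, where 1 passed), among them Col9a2 (2.57), Col6a5 (2.50), Col13a1 (1.85) and Col6a2 (1.23). Col6a2, a chain of the microfibrillar type VI collagen, had a slope of 1.28 ± 0.20 in the 22 (edgeR adjusted p = 0.00577), and with the length trend it was at 0.46 (edgeR adjusted p = 0.304). Genes of the basement membrane passed in 10 of 21 (median 0.59, but -0.04 with the length trend, where none passed), and 16 of 20 with a length lie in the longest quintile. Over all genes of that quintile 48.6% were called higher, so the count of basement membrane genes is near the share for genes of this length. Nid1 (1.53), Lama2 (1.39), Col4a2 (1.25) and Col4a1 (1.13) were higher, and Lama5 (0.07) and Agrn (0.18) did not pass. Leucine-rich proteoglycans other than Dcn and Lum passed in 7 of 12 (median 0.98, 0.68 with the length trend, where none passed). Bgn, biglycan, was at 452 ± 200 and 187 ± 66.8 CPM (1.27 ± 0.20, edgeR adjusted p = 7.87e-05; 0.67 with the length trend, edgeR adjusted p = 0.182), and Prelp (1.82), Ogn (1.66) and Podn (1.47) were higher. Elastic fibre genes passed in 12 of 17 (median 0.74, 0.39 with the length trend, where 2 passed). There Fbln5 (1.25) and Efemp1 (1.61) kept their call with the length trend, at 1.27 and 2.06 (edgeR adjusted p = 0.0216 and 0.0225).

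Enzymes that fold and cross-link collagen were higher in 13 of 25 and lower in 1 (median 0.44, 0.11 with the length trend, where none passed). The lysyl oxidases Loxl1 (1.30 ± 0.17, edgeR adjusted p = 4.14e-05), Lox (0.96) and Loxl2 (0.81) and the procollagen protease Adamts2 (1.46 ± 0.21, edgeR adjusted p = 5.87e-05) were higher. The prolyl isomerase Ppib, a short gene expressed by most cells, was lower (-0.64), and the collagen chaperone Serpinh1 (0.16) did not pass. Of the matrix proteases and their inhibitors 13 of 22 were higher (median 0.91, 0.62 with the length trend, where 1 passed). Mmp2, the gelatinase of fibroblasts, ran from 65.4 to 352 CPM (median 152) in rich and from 15.5 to 75.3 CPM (median 47.1) in poor tumours. Rich exceeded poor in all 6 groups and 13 rich libraries stood above every poor one, with a log2 fold change of 1.74 ± 0.24 (edgeR adjusted p = 4.96e-05). The slope of Mmp2 in the 22 was 1.30 ± 0.22 (edgeR adjusted p = 0.00577), and with the length trend it was at 1.19 (edgeR adjusted p = 0.0684). Adamts15 (1.87), Adamts12 (1.52), Adamts5 (1.43) and the inhibitor Timp3 (1.12) were higher, while Timp1 and Timp2 (0.01 each) and Mmp13 (0.24) did not pass.

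Contractile genes passed in 6 of 16 (median 0.39, 0.07 with the length trend, where none passed). Acta2, smooth muscle actin, was at 93.3 ± 33.5 and 69.2 ± 18.1 CPM (0.55 ± 0.17, edgeR adjusted p = 0.013), and Postn, periostin, at 367 ± 106 and 206 ± 69.6 CPM (0.81 ± 0.17, edgeR adjusted p = 0.000874). Tnc (0.92), Thbs2 (0.87), Thbs1 (0.66) and Myl9 (0.54) were higher. Tagln (-0.29), Cthrc1 (-0.24) and Lrrc15 (0.76) did not pass. In the 22 libraries none passed (median slope -0.01).

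Growth factor axes were described by ligand and receptor. In the TGF-beta axis 8 of 19 genes lie in the longest quintile and 6 in the fourth, where 48.6% and 31.3% of all genes were called higher. Of this axis 9 of 19 passed (median 0.33, 0.01 with the length trend, where none passed). Of its ligands, Tgfb1 was at 115 ± 26.2 and 101 ± 20.8 CPM (0.29 ± 0.07, edgeR adjusted p = 0.00323), Tgfb2 was higher (0.72) and Tgfb3 did not pass (0.13 ± 0.15, edgeR adjusted p = 0.518). The receptors Tgfbr3 (0.94 ± 0.16, edgeR adjusted p = 0.000106) and Tgfbr2 (0.62 ± 0.11, edgeR adjusted p = 0.000133) were higher, Tgfbr1 (0.13) did not pass, and the target Tgfbi was higher (0.52). In the PDGF and FGF axes 7 of 15 passed (median 0.68, 0.07 with the length trend, where none passed), among them the ligands Fgf7 (1.60), Fgf10 (1.51) and Fgf2 (0.84) and the receptors Fgfr1 (1.02) and Fgfr2 (0.83). The ligands Pdgfa (0.05) and Pdgfc (-0.29) did not pass. In the IGF and BMP axes 7 of 20 passed (median 0.52, 0.47 with the length trend, where none passed), with Igfbp5, a binding protein of insulin-like growth factors, at 58.1 ± 30.6 and 16.0 ± 7.98 CPM (1.77 ± 0.26, edgeR adjusted p = 6.01e-05). Wnt modulators passed in 8 of 15 (median 0.66, 0.49 with the length trend, where none passed), among them the secreted Wnt antagonists Sfrp2 (1.61) and Sfrp1 (0.90).

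**Figure D4:**
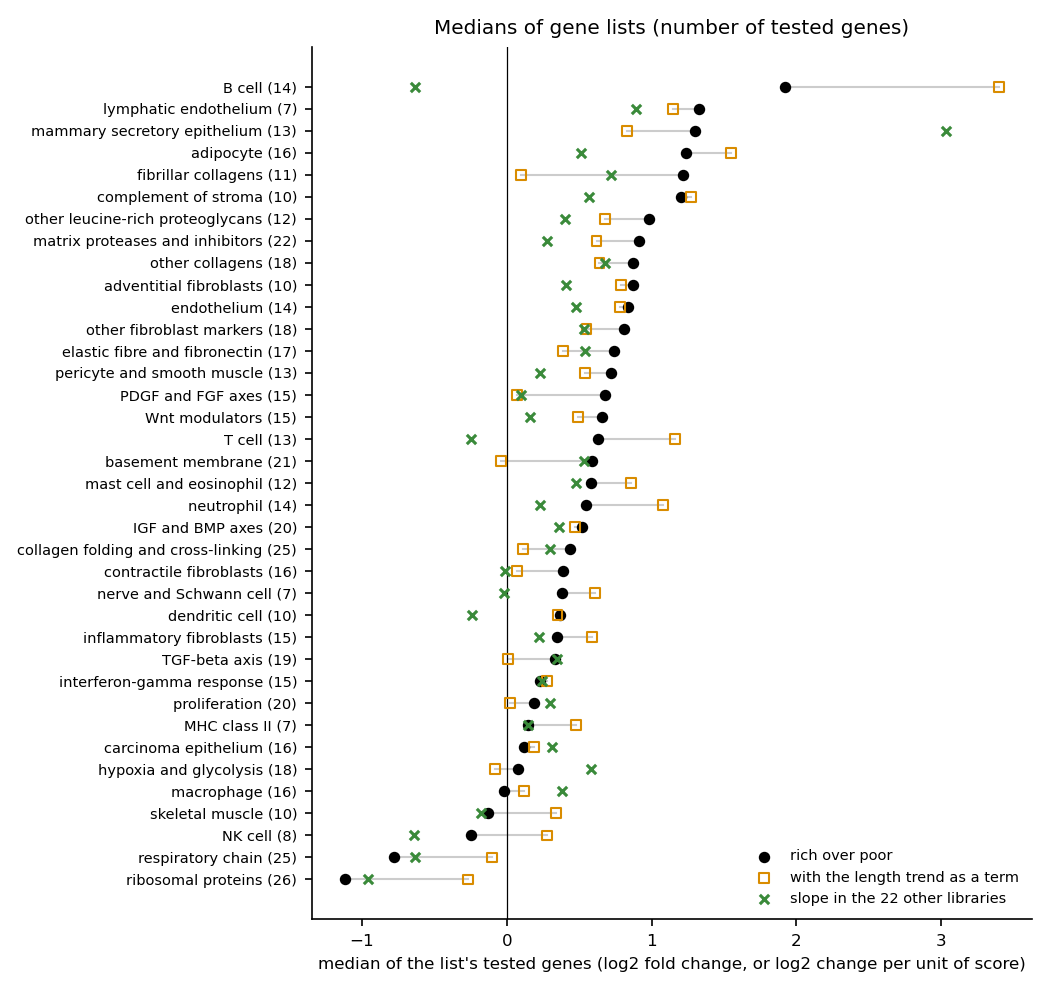
Median over the tested genes of each gene list (number in brackets) of the log2 fold change between rich and poor tumours, the same with the length trend as a term, and the slope in the 22 other libraries (log2 change per unit of score). Fibrillar collagens move from 1.22 to 0.10 with the length trend and ribosomal proteins from -1.12 to -0.27, while complement lies at 1.20 and 1.27.

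Markers of other host tissue moved with the classes. Endothelial markers were higher in 9 of 14 (median 0.84, 0.78 with the length trend, where 4 passed). Pecam1, the adhesion molecule CD31, ran from 42.4 to 132 CPM (median 97.7) in rich and from 26.3 to 86.2 CPM (median 47.3) in poor tumours, and 9 rich libraries stood above all poor ones (0.92 ± 0.14, edgeR adjusted p = 6.83e-05). Cdh5 (1.31), Kdr (1.24) and Flt1 (0.77) were higher, while Vwf (0.37), Emcn (0.36) and Cldn5 (0.29) did not pass. The summed endothelial level ranged from 275 to 791 CPM in rich and from 217 to 1350 CPM in poor tumours, where the highest poor value exceeds every rich one. Pericyte and smooth muscle markers were higher in 8 of 13 and lower in 2 (median 0.72, 0.54 with the length trend, where none passed): Myh11 (1.80) and Notch3 (1.74) were higher, and Higd1b (-1.12) and Cox4i2 (-0.77) lower. With the length trend Myh11 was at 1.27 and Notch3 at 0.86 (edgeR adjusted p = 0.158 and 0.225). Sox10, a transcription factor of Schwann cells, was at 2.94 ± 1.5 and 0.773 ± 0.745 CPM (2.51 ± 0.41, edgeR adjusted p = 9.52e-05) with a slope of 2.55 ± 0.60 in the 22 (edgeR adjusted p = 0.0161). With the length trend Sox10 was at 1.96 (edgeR adjusted p = 0.105). Of 7 nerve markers 4 were higher (median 0.38), and none passed with the length trend (median 0.61). In the 22 libraries 2 of the 7 nerve markers passed, but only 3 had a positive slope (median -0.02), so Sox10 does not stand for the list.

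Adipocyte markers were higher in 13 of 16 and lower in none (median 1.24, 1.55 with the length trend, where 1 passed). Their summed level was 564 to 2920 CPM in rich and 173 to 2160 CPM in poor tumours. Lpl, lipoprotein lipase, was at 100 ± 50.4 and 29.8 ± 16.7 CPM (1.74 ± 0.26, edgeR adjusted p = 6.27e-05), Plin4, a lipid droplet protein, at 34.2 ± 15.6 and 10.9 ± 6.05 CPM (1.88 ± 0.33, edgeR adjusted p = 0.00015), and adiponectin, Adipoq, at 56.4 ± 24.3 and 32.9 ± 19.6 CPM (1.07 ± 0.37, edgeR adjusted p = 0.0247). Markers of secretory mammary epithelium passed in 5 of 13, among them Btn1a1 (1.84) and Elf5 (1.55) (list median 1.30; 0.83 with the length trend, where none passed), with a summed level of 81.7 to 784 CPM in rich and 53.9 to 674 CPM in poor tumours. In the 22 libraries all 13 of these markers had a positive slope and 1 passed, with a median slope of 3.03. Skeletal muscle markers were lower in 2 of 10, Tnni2 (-1.20) and Tnnt3 (-1.11), with Ckm at -1.05 not passing (list median -0.13; 0.34 with the length trend, where none passed). No marker of these lists was at 0 in every library. The part of admixed fat pad, vessel and gland in the fibroblast results was not tested.

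Markers of carcinoma epithelium were higher in 6 of 16 and lower in 1, against 19.1% and 20.6% of all genes, and none passed with the length trend (median 0.12, 0.19 with the trend). Epcam was at 152 ± 63.4 and 161 ± 61.5 CPM (0.12 ± 0.13, edgeR adjusted p = 0.506), and the keratin Krt8 at 724 ± 259 and 783 ± 264 CPM (0.13 ± 0.18, edgeR adjusted p = 0.615). The higher markers included the basal keratins Krt5 (2.18 ± 0.37, edgeR adjusted p = 0.000107), Krt17 (0.95) and Krt14 (0.91), which normal myoepithelium expresses too. The proliferation gene Mki67 was at 92.2 ± 33.1 and 59.1 ± 29.3 CPM (0.60 ± 0.23, edgeR adjusted p = 0.0357) but at -0.24 with the length trend (edgeR adjusted p = 0.61). Among 20 genes of proliferation 7 were higher and 3, Pcna, Tyms and Birc5, lower (median 0.19, 0.02 with the length trend).

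Immune markers gave a mixed picture. Among 16 macrophage markers 2 were higher and 3 lower (median -0.02; 0.12 with the length trend, where 1 passed), and Adgre1, the F4/80 antigen, was at 68.7 ± 16.1 and 57.3 ± 13.8 CPM (0.23 ± 0.12, edgeR adjusted p = 0.127). Cd163, the haemoglobin scavenger receptor of resident-type macrophages, ran from 21.0 to 239 CPM (median 66.7) in rich and from 8.81 to 108 CPM (median 15.7) in poor tumours. Rich exceeded poor in all 6 groups, and the log2 fold change was 1.69 ± 0.22 (edgeR adjusted p = 4.14e-05), 1.52 with the length trend (edgeR adjusted p = 0.0308), with a slope of 2.01 ± 0.42 in the 22 (edgeR adjusted p = 0.00861). Csf1r was higher (0.67), and C1qa (-0.36), Fcgr1 (-0.56) and Trem2 (-0.59) were lower. Mast cell and eosinophil markers were higher in 6 of 12 (median 0.58, 0.86 with the length trend, where 2 passed), among them the mast cell protease Mcpt4 (1.04 ± 0.23, edgeR adjusted p = 0.00126) and Kit (0.96). Of 14 neutrophil markers 4 were higher and 1, Il1b, lower (median 0.55; 1.08 with the length trend, where 3 passed). The granule gene Ngp was at 3.43 with the length trend (edgeR adjusted p = 0.0145), against 1.46 ± 0.52 without it (edgeR adjusted p = 0.0272), and its highest value, 104 CPM, belonged to a poor library.

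Medians of the lymphocyte lists had opposite signs in the separate fits of young and of aged hosts. Among the young libraries compared, batch 3 held 3 rich ones, all under anti-CTLA4, and no poor one. With a term for batch, the class effect in young hosts did not draw on these 3. T cell markers were called higher in 2 of 13, Foxp3 (1.36) and Il7r (0.96), with a median of 0.63 that was -0.75 in young hosts and 2.13 in aged hosts, and with the length trend none passed and all 13 were above 0. The 14 B cell markers had a median of 1.92, and none passed (edgeR, all 14 above 0); with the length trend none passed and the median was 3.4. In aged hosts all 14 were called higher (median 5.39), against 5.64% of all genes. In young hosts none was called and the median was -1.91. The mean log2(CPM + 1) of B cell markers was 6.385 in young anti-PD-L1 replicate 3 and 5.43 in young anti-CTLA4 replicate 8, both poor. The other young poor libraries lay between 0.93 and 1.52, and the young rich ones between 1.03 and 7.07. Aged rich libraries lay between 1.38 (anti-PD-L1 replicate 5) and 5.93, and aged poor ones between 0.805 and 2.65 (isotype replicate 6). Aged libraries of neither class lay between 0.951 and 5.55, so high B cell levels were not confined to the rich class. No B cell marker passed the test of the difference between the ages (edgeR adjusted p from 0.116 to 0.192). Cd8a was at -1.17 ± 0.47 in young hosts (edgeR adjusted p = 0.0619) and 1.98 ± 0.67 in aged hosts (edgeR adjusted p = 0.0724) in the separate fits. The joint fit of both ages gave a difference of 2.74 ± 0.77 with an edgeR adjusted p of 0.103. In the 22 libraries the median slopes were -0.25 for T cell and -0.63 for B cell markers. The summed B cell level ranged from 21.2 to 2250 CPM in rich and from 15 to 1510 CPM in poor tumours. Of 8 natural killer cell markers 2 were lower, Klrk1 (-0.60) and Xcl1 (-0.77), but the list's median of -0.25 was 0.54 in aged hosts and 0.28 with the length trend. Lymphatic markers passed in 1 of 7 (median 1.33; 1.15 with the length trend, where none passed), with medians of -0.89 in young and 4.29 in aged hosts, where 6 passed.

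The remaining lists were those of antigen presentation, interferon and hypoxia, and none of their genes passed with the length trend. Dendritic cell markers were higher in 2 of 10 and lower in 1, with a median of 0.37 (0.35 with the length trend). MHC class II genes were higher in 1 of 7, with a median of 0.15 (0.48 with the trend), and genes of antigen-presenting fibroblasts and mesothelium in 2 of 4, with a median of 0.40 (0.24 with the trend). Of 15 genes of the interferon-gamma response 4 were higher and 2, the chemokines Cxcl9 (-0.62) and Cxcl10 (-0.56), lower (median 0.23, 0.28 with the trend). Of 18 genes of hypoxia and glycolysis 1 was higher and 2 were lower (median 0.08, -0.08 with the trend).

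Genes of the ribosome and of respiration were lower in rich tumours. All 26 ribosomal protein genes were called lower (median -1.12), and 22 of them had a negative call in the 22 libraries (median slope -0.96). Rps7 ran from 192 to 810 CPM (median 348) in rich and from 449 to 2010 CPM (median 758) in poor tumours, and rich lay below poor in all 6 groups (-1.24 ± 0.19, edgeR adjusted p = 7.06e-05). These are short genes: 22 of the 26 lie in the shortest quintile, and with the length trend the median was -0.27 and none passed (edgeR adjusted p = 0.158 for Rps7). Several have processed copies in the genome whose reads the counting could share. Of 25 respiratory chain genes 19 were lower and 1 higher (median -0.78, -0.10 with the length trend), and 19 lie in the shortest quintile. The higher one was Sdha, the flavoprotein of complex II (0.50 ± 0.08, edgeR adjusted p = 8.73e-05). The 15 leading lower genes were Dynlt1c, Mycbp, Ube2b, Lsm1, Polb, Sike1, Bcl2a1d, Mff, Alkbh1, Txnl4a, Anapc10, Tgds, Srsf7, Tbpl1 and Ssbp1, with log2 fold changes from -1.32 (Bcl2a1d) to -0.76 (Alkbh1 and Srsf7). Counts of Dynlt1c and Bcl2a1d are uncertain, since both have near-identical copies.

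Whether the class effect differed with age or antibody was tested with interaction terms. Between aged and young hosts 1 gene of 18958 passed (0.00527%; 3752 at an unadjusted p under 0.05). This was Tnn, tenascin N, a matrix protein of bone and tumour stroma, for which the difference was -3.97 ± 0.63 (edgeR adjusted p = 0.0294). In separate fits of each age, Tnn was higher in rich tumours of young hosts (2.58 ± 0.54) and lower in those of aged hosts (-1.75 ± 0.34). Young poor libraries lay between 0.286 and 1.45 CPM and young rich ones between 1.07 and 17.4 CPM, whereas aged poor libraries lay between 4.36 and 13.7 CPM and aged rich ones between 1.32 and 6.38 CPM. The next genes were Plbd1 (1.00 ± 0.18), Gm21092 (-1.05 ± 0.20), Klrk1 (1.49 ± 0.28) and Phtf1os (-1.92 ± 0.36), each at an edgeR adjusted p of 0.0745. DESeq2 with the same terms called 973 genes here.

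Between anti-PD-L1 and isotype no gene passed (0%; edgeR, 905 at an unadjusted p under 0.05, and 29 with DESeq2). The genes of smallest p were Vcam1, an endothelial and stromal adhesion molecule (-1.12 ± 0.26), 4930562F07Rik, Uggt2 (1.54 ± 0.38), Hadha (-0.59 ± 0.15) and Trpc4ap (-0.58 ± 0.15), all at an edgeR adjusted p of 0.911. Between anti-CTLA4 and isotype none passed either (0%; edgeR, 425 at an unadjusted p under 0.05, and 9 with DESeq2). The smallest p belonged to Gm22133, Cachd1 (2.85 ± 0.53, edgeR adjusted p = 0.165), Gm44487, Gm12816 and Neurog1, of which all but Cachd1 had libraries at or near 0 CPM.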

How the data were processed

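RNA of 52 tumours was sequenced from poly(A)-selected, strand-marked libraries in 3 batches, per the labels. The authors deposited estimated counts and TPM for 47729 identifiers. Salmon, mm10 and DESeq2 1.16.1 are listed, with no role given, per the submitters' processing notes; the Salmon version, annotation and use of strand are not given in the sources used here. Total counts ran from 9549847 to 53778370 (median 20665734), which limits the precision of low genes. The deposited TPM gave the score. The estimated counts were filtered with filterByExpr, scaled with TMM and tested with edgeR 4.0.16 (R 4.3.3, limma 3.58.1) by quasi-likelihood. The terms were group, batch and class, and the 3 genes of the score were left out of the adjustment (Benjamini-Hochberg). DESeq2 1.42.0 was an alternative. CPM uses the TMM-scaled totals. Scripts were tested on simulated data.

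Members and gene lists (38 lists, 576 genes, 4 unmatched) were chosen with earlier results of these data known. Genes were named by smallest p, 15 in each direction where the mean reached 1 CPM. Each list that held a passing gene added up to 4 members of smallest p, whether or not these passed. A fixed set of 20 and 5 genes for each difference of effects were added. Other list members were chosen as examples after their values were seen. Some list members are not reported here. Positions are from GENCODE (GRCm38), promoters from RefSeq.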

Additional observations from a re-analysis of the deposited data

Results flagged for a closer look

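The level of Dcn, a gene of the score, stood apart in single libraries. In aged anti-PD-L1 hosts replicate 8 reached 221 TPM, and the next of 8 libraries was at 110 TPM, a gap of 0.611 of the group's range. In aged isotype hosts replicate 4 reached 205 TPM, and the next of 7 was at 83.8 TPM, a gap of 0.703 of the range. Both are rich libraries. These were 2 of 35 sets of values checked, where chance marks about 1 in 20.

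The effect of class on Tnn differed between host ages: aged minus young was -3.97 on the log2 scale (edgeR adjusted p = 0.0294), the 1 gene of this test to pass. No explanation was tested.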

How the results depend on the processing

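The classes gave 7534 calls. The count was 0 with a replicate block (edgeR, 4776 at an unadjusted p under 0.05), 138 with the length trend as a term, 1796 in aged hosts alone, and 0 within batch 1 and 0 within batch 3 (4209 and 2870 unadjusted). DESeq2 gave 8409, RLE scaling 7666, no filter 6705, no batch term 8749, and leaving out each library 6383 to 8161. The labels name no animal, so replicate numbers were not taken to pair tumours. Among 32 same-number pairs in different groups 12 had a correlation over 0.1 (median 0.015, and 0.001 for different-number pairs). With the block the residual degrees of freedom fell from 21 to 10. Why the block removes the calls was not tested. Of the calls 48% were higher, and 78.3% with the length trend. The slopes in the 22 libraries gave 1316 calls, 2260 with DESeq2, 767 without a filter, 712 without the batch term, and 0 to 1652 leaving out each library (0 without young isotype replicate 2, 3647 unadjusted). The age difference called 1 gene, 170 without a filter and 973 with DESeq2. The anti-PD-L1 difference called 0, and 29 with DESeq2. The anti-CTLA4 difference called 0, and 1 without the batch term, 1 without a filter and 9 with DESeq2. The causes were not tested.

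Signs turned as follows (log2), leaving out the medians nearest 0, macrophage (-0.02) and hypoxia (0.08), where the move was under 1 SD of the poor libraries, as with the length trend (0.12 and -0.08). With the length trend: basement membrane -0.04, skeletal muscle 0.34, NK cell 0.28, Fscn1 -0.01, Trem2 0.01, Mki67 -0.24, Klrk1 0.11, Xcl1 0.13. In young hosts: lymphatic -0.89, T cell -0.75, B cell -1.91, dendritic cell -0.63, MHC class II -0.36. In aged hosts: contractile -0.09, NK cell 0.54, hypoxia -0.44, Col1a1 -0.01, Ncam1 -0.22, Klrk1 0.27, Xcl1 0.10. In batch 1: NK cell 0.32, hypoxia -0.28, Klrk1 0.07. In batch 2: lymphatic -0.40, T cell -0.88, B cell -3.01, dendritic cell -0.77, MHC class II -0.44. In batch 3: fibrillar collagens -0.25, basement membrane -0.03, skeletal muscle 0.96, nerve -0.27, interferon-gamma response -0.42, Postn -0.04, Tap1 -0.21, Thbs2 -0.21, Col5a3 -0.25, Col1a1 -0.36, Irgm1 -0.11, Ncam1 -0.33, Mki67 -0.40. With the replicate block: interferon-gamma response -0.05, proliferation -0.05. Without young anti-PD-L1: skeletal muscle 0.10, NK cell 0.04. Without aged anti-PD-L1: MHC class II -0.07. With Pdgfra alone as the score: neutrophil -0.27.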
